A study of Mus musculus with 2 samples.

Results

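Long intergenic noncoding RNA (lincRNA) genes were examined in long-read RNA sequencing of neonatal mouse gastrocnemius, a fast-twitch calf muscle. A gene was included if its annotated type was lincRNA and if it had at least 10 counts summed over both libraries, all transcript classes together, and H19, Meg3, Rian and Mirg were left out by name. The rule selected 76 genes. There were 673 lincRNA genes with any count and 5854 in the annotation, and 17859 annotated genes of all types had counts. Because the summed count chose the genes, their presence and level are given as a description. LincRNA genes are transcribed by RNA polymerase II from loci outside protein-coding genes, and their RNAs are often spliced and polyadenylated while lacking a long open reading frame. Some act in the nucleus as scaffolds for proteins, some bind microRNAs or RNA-binding proteins in the cytoplasm, and others serve mainly as precursors of small RNAs held in their introns or exons. In muscle, noncoding RNAs of this kind have been described in myoblast differentiation and as hosts of muscle microRNAs.

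The tissue came from male B6CASTF1/J mice, a hybrid strain, 4 days after birth, and the series holds 1 group of 2 libraries, called replicate 1 and replicate 2. The labels number the libraries as biological replicates 1 and 2 and list separate biosamples, but under 1 donor entry. Whether they came from 2 animals is thus not settled, and p-values measure only the spread or counting error of these libraries. The libraries held 1066347 and 1100253 counts, of which 998659 and 1026257 fell on annotated mouse genes. With 2 libraries of 1 group no comparison of conditions was possible, and an exact sign-flip permutation test over them could not go below p = 0.5.

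Markers of muscle fibres took 116109 and 139874 counts, so the labelled tissue was found in both libraries. Of these 12 markers, 6 were called as higher and 4 as lower in replicate 2 (Fisher's exact test). The libraries also differed in markers of other tissues: 14 skin and hair markers summed to 5 counts in replicate 1 and 1455 in replicate 2, and 10 Schwann cell and nerve markers summed to 1514 and 3681. Adipocyte markers summed to 540 and 840, with 4 of the 5 tested called as higher in replicate 2 (Fisher's exact test). Fibroblast and matrix markers summed to 39151 and 28204, with 3 of 8 called as higher and 2 as lower in replicate 2. Over all 11027 genes tested, 9.74% were called. None of the selected lincRNA genes belongs to these marker lists, and the part of such cells in any difference below was not tested. In tissue RNA, fewer cells of a type and less RNA per cell cannot be told apart.

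The 76 genes together took 1411 counts in replicate 1 and 1474 in replicate 2, or 0.142 ± 0.00165% of counts on annotated genes (SD, n = 2). Their summed level was 1413 and 1436 CPM, the usual scaling of counts to library size, here to the counts on annotated genes. All 76 had counts in both libraries. The median gene had 20 counts, and 37 of the 76 had between 10 and 19, so most single values rest on few reads. The 10 highest genes held 49.3% of the counts. At the lower end of the rule, 11 genes had exactly 10 counts, among them 2410018L13Rik with 4 and 6 and A530001N23Rik with 3 and 7. Just outside it, 7 lincRNA genes had 9 counts, among them 2310065F04Rik and 4632428C04Rik with 6 and 3 counts each.

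**Figure D1:**
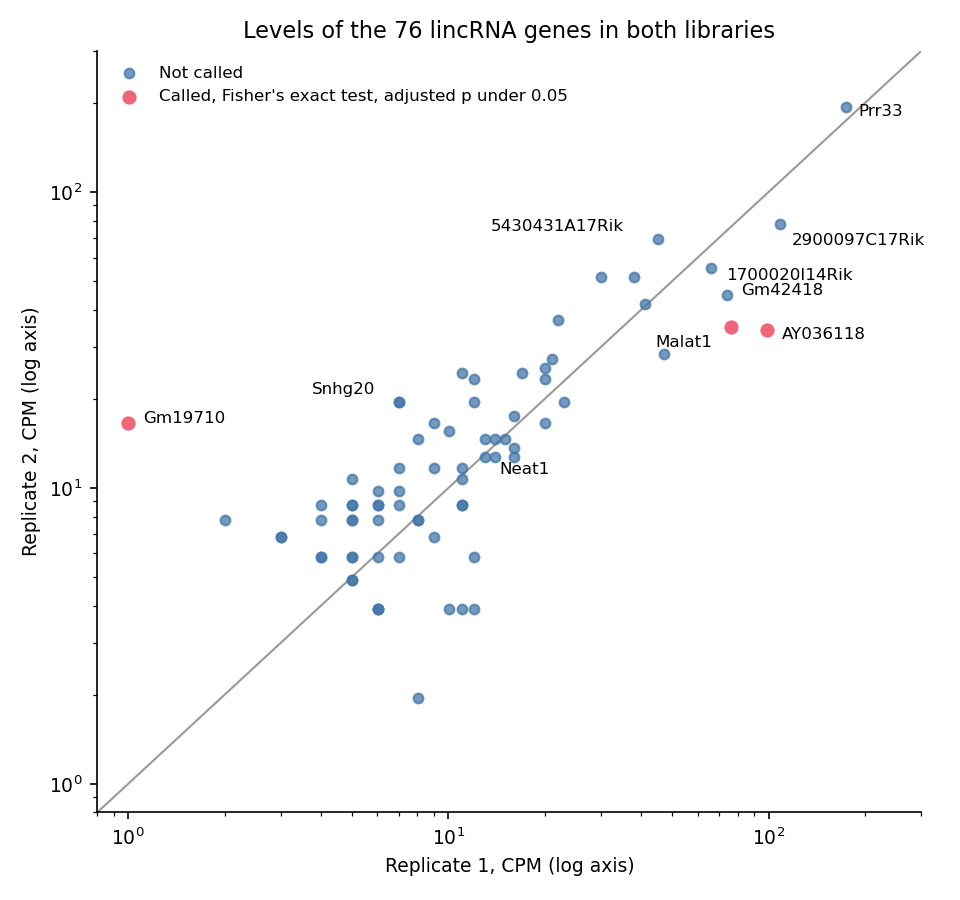
Level of each of the 76 lincRNA genes in replicate 1 (x axis) and replicate 2 (y axis), both in CPM on log axes. The grey line marks equal levels, and the 3 red points are the genes called between the libraries (AY036118, Malat1 and Gm19710).

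Counts of long reads are not divided by transcript length here, because each read is counted once whatever the length of its RNA. On this CPM scale the order began with Prr33, 2900097C17Rik, AY036118, 1700020I14Rik and Gm42418, at mean levels of 184 ± 13.2, 93.0 ± 21.3, 66.6 ± 46.0, 60.8 ± 7.46 and 59.5 ± 20.7 CPM (SD, n = 2). The last 3 of these cannot be ordered beyond the spread between libraries. Per kb of the leading structure (defined below), which 63 of the genes had, the order changed. Gm10076 came first at 108 CPM per kb, and 6 of the 10 highest genes by CPM stayed among the 10 highest. Counts of all classes were divided by that length. For Prr33, at rank 3 per kb, it is the length of a structure with 15 of its 372 counts.

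Among RNAs known from many tissues, 2900097C17Rik, Malat1, 1700020I14Rik and Neat1 were selected. 2900097C17Rik is the mouse Norad gene in RefSeq, whose cytoplasmic RNA is known for binding Pumilio proteins (chr2:156388065-156392979 on mm10, minus strand). It had 108 counts in replicate 1 and 80 in replicate 2. The level was lower in replicate 2, but the difference was not called after adjustment (two-sided Fisher's exact test, adjusted p = 0.167). All but 3 of its 188 counts fell on a pair of annotated structures of 1 exon. The full 4915-base transcript held 59 and 38 counts, and a 339-base transcript lying inside it, at chr2:156392491-156392829, held 48 and 40. The files do not give read lengths, so a count on a 1-exon structure does not show that the read covered the whole of it.

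The Pumilio element was searched as TGTANATA on the RNA's own strand, overlaps allowed, because it is the feature for which this RNA is known. The 4915-base transcript held 11 matches. Of 124 other lincRNA genes with a transcript of 4000 to 6000 bases, 38.7% had a match and the highest had 4. Of 5152 protein-coding genes with such a transcript, 43.5% had a match, and 1 had at least as many, with the highest at 15. A match is a description of the sequence and not a bound site. The first stretch along the transcript that holds a pair of matches within 150 bases is shown, with the matches in capitals (chr2:156391339-156391467 in mm10, minus strand, from the GENCODE M21 transcript).
2900097C17Rik: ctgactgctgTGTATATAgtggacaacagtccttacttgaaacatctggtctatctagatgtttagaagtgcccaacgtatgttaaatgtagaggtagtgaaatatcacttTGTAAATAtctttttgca

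1700020I14Rik, named Oip5os1 in RefSeq and known as Cyrano, is a conserved RNA that carries an extended site for the microRNA miR-7 and is known to promote its decay. It had 66 and 57 counts (chr2:119594297-119607502). The leading structure has 3 exons and 8300 bases and held 36 and 29 counts, or 70.6% and 67.4% of the counts on Known, NIC and NNC structures. A shorter annotated structure of 3 exons and 1381 bases held 10 and 10. The extended site lies in the 8300-base structure and not in the 1381-base structure, so 65 counts fell on a structure that holds it and 20 on one that does not. A match to the miR-7 seed alone was present in both. Of 134 lincRNA genes with a transcript at least 50 percent as long, 52.2% held a seed match. From base 9 of the microRNA onward, 14 of 15 bases can pair with the site when 2 bases of the RNA are skipped. Both sequences are shown 5′ to 3′, with the seed and its match in capitals, and the site is at chr2:119602136-119602161.
mmu-miR-7a-5p: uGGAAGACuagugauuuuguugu
1700020I14Rik site: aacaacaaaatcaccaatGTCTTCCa

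Malat1, a nuclear speckle RNA, had 76 and 36 counts, or 76.1 and 35.1 CPM (chr19:5795690-5802672, minus strand). All but 1 of these fell on the annotated 1-exon structure of 6983 bases. The level was lower in replicate 2 by 1.11 on the log2 scale (95% interval -1.73 to -0.53, adjusted p = 0.00222, two-sided Fisher's exact test). Malat1 was 1 of 3 genes called among the 76, a share of 3.95%, whereas 9.74% of all 11027 genes tested were called. The test compares these 2 libraries with counting error only. The call was lost once a spread between libraries was assumed (edgeR exact test, biological coefficient of variation preset to 0.1, adjusted p = 0.0795). Over the alternatives run, its adjusted p ranged from 0.00185 to 1. Neat1, the architectural RNA of paraspeckles and a neighbour of Malat1 on chromosome 19, had 13 counts in each library. Of its 21 counts on Known, NIC and NNC structures, 18 were assigned to the annotated 1-exon transcript of 20771 bases. Xist, a list member that was not selected, had 0 counts in both male libraries, which allows up to 3 counts in each.

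The annotated sequences of the 1-exon leading structures of Malat1 and 2900097C17Rik hold a canonical poly(A) signal near the end. Their last 50 bases are shown with AATAAA in capitals, from the annotation and not from read ends, so where the RNAs end was not tested.
2900097C17Rik: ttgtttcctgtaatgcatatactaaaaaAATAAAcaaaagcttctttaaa
Malat1: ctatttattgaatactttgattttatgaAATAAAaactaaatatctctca
AATAAA or ATTAAA occurred in the last 50 bases of 28 of the 49 annotated leading structures (57.1%). In protein-coding genes of the same count range (10 counts up to the highest lincRNA gene), 78.6% of 8849 annotated leading structures had one of them.

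Several selected genes hold small RNA genes on their own strand. Gm28653 is the locus described as linc-MD1 in differentiating myoblasts and holds Mir206 and Mir133b, both muscle microRNAs (chr1:20669882-20684298). It had 4 and 9 counts, so it was close to the lower limit of the rule. The Mir133b hairpin lay inside an exon for 11 of the 13 counts, and the Mir206 hairpin was partly exonic for 4 and intronic for 5. RefSeq held mature sequences for 3 of the 5 microRNA genes found in selected genes (build GRCm38.p6), and those of Mir206 and Mir133b are printed because they are the muscle members. Seeds (bases 2 to 8) are in capitals, and no pair of the 4 shares one.
mmu-miR-206-5p: aCAUGCUUcuuuauauccucaua
mmu-miR-206-3p: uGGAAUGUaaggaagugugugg
mmu-miR-133b-5p: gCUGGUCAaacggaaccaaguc
mmu-miR-133b-3p: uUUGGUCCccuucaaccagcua

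Snhg18, Snhg20 and Snhg6 are host genes, whose spliced RNAs are by-products or partners of small RNAs processed from their introns. Snhg18 had 13 and 15 counts, and Snord123 lay in an intron for 27 of the 28. Snhg20 had 7 and 20 counts, and Mir6516 and the small Cajal body RNA Gm26083 were intronic for 22 of the 27 and exonic for 5. Snhg6 had 5 and 9 counts, with Snord87 intronic for 12 of the 14. Snhg20 was the highest of these in replicate 2 and below Snhg18 in replicate 1, and its difference between libraries was not called (adjusted p = 0.131, two-sided Fisher's exact test). A930003A15Rik holds the annotated microRNA gene Gm27883, wholly exonic for 39 counts and partly exonic for another 39. The counts of Gm26551 all lay outside its microRNA gene Gm24157.

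Of the 17 annotated small nucleolar RNA hosts on a list chosen with earlier results known, 16 had counts and 11 were tested, and 0 were called in either direction, with 1 (Snhg20) at an unadjusted p under 0.05 (Fisher's exact test). Over all 11027 genes tested 9.74% were called and 2319 had such a p, so 0 of 11 is too few genes to set apart from that share. Their median log2 ratio of replicate 2 over replicate 1 was 0.45, against -0.04 over all genes tested. Only the 3 named hosts were selected, since most of the others, such as Gas5 with 28 and 40 counts, carry another annotated type. Of 14 annotated microRNA hosts, 5 were tested and 0 were called, with 1 (Mir22hg, 78 and 48 counts) at an unadjusted p under 0.05 (Fisher's exact test), and 5 genes are likewise too few to read against the 9.74% of all genes. Of the nuclear or widely expressed RNAs listed, 16 were found in the annotation by symbol, 6 of these were tested and Malat1 alone was called. 1700020I14Rik, listed as Oip5os1, was not found by that symbol and is not among them. It was tested under its annotated symbol and was not called. Dubr, an RNA described in myoblasts, had 6 counts in each library and was the only selected gene on the list of 13 developmental regulators. Hotair had 1 count in each library and Hottip 0 in both.

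AY036118, Gm42418 and Gm26917 lie together within 5776 bases at chr17:39843013-39848788, in a copy of ribosomal DNA. RefSeq places Gm42418 under Rn18s-rs5, a pseudogene of 18S ribosomal RNA. All the bases of AY036118 are also in Gm42418 on the other strand, and the annotation has a ribosomal RNA gene, CT010467.1, on the strand of AY036118. AY036118 had 99 and 35 counts, and was lower in replicate 2 by 1.53 on the log2 scale (95% interval -2.14 to -0.97, adjusted p = 6.46e-07, two-sided Fisher's exact test). Gm42418 had 74 and 46 counts and Gm26917 47 and 29. Both were lower in replicate 2 but were not called (adjusted p = 0.0707 and 0.171, Fisher's exact test). Every count of the 3 genes was on an annotated 1-exon structure, and none of those structures has AATAAA or ATTAAA in its last 50 bases. The 3 genes held 330 of the 2885 counts.

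**Figure D2:**
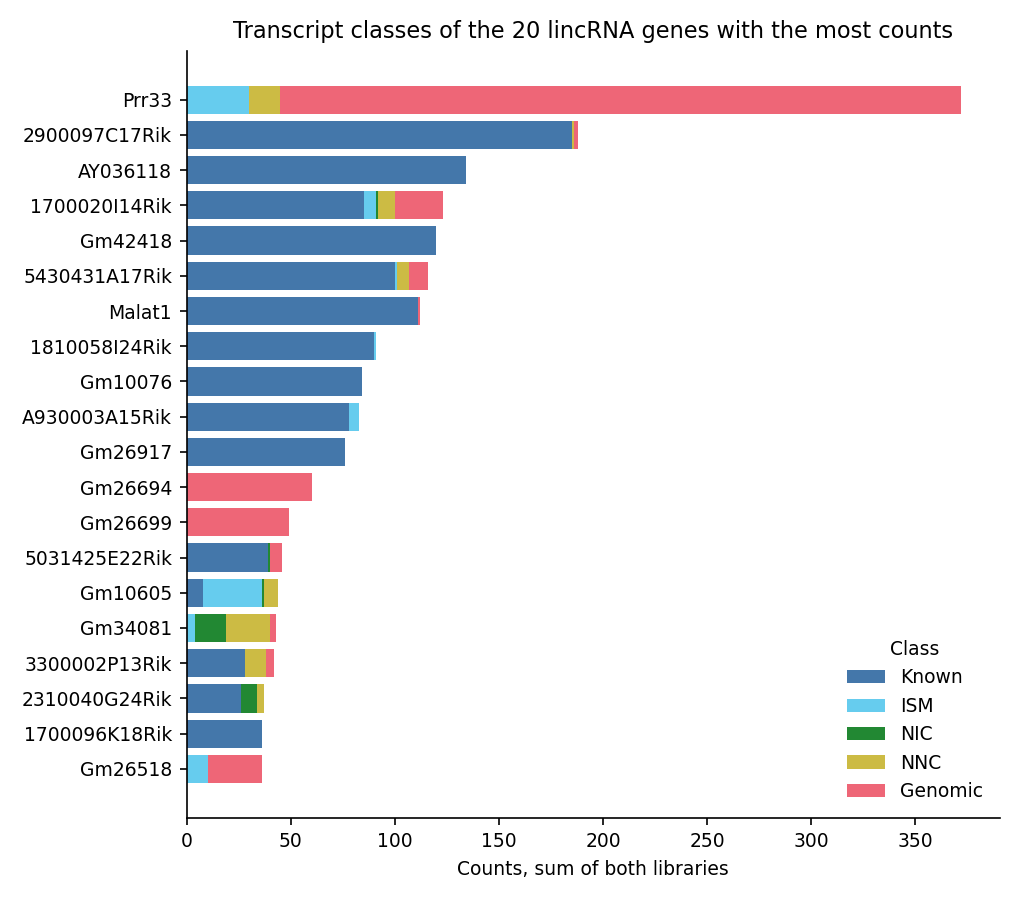
Counts of the 20 lincRNA genes with the most counts, summed over both libraries (x axis), coloured by transcript class. Prr33 is the longest bar, with 327 of 372 counts in the Genomic class, and Gm26694 and Gm26699 consist of that class alone.

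Transcript models are deposited in 5 classes that sort each model by its splice sites. Known models match an annotated transcript, incomplete splice matches (ISM) hold only part of an annotated series of introns, models of the NIC class join annotated splice sites in an unannotated way, and models of the NNC class use an unannotated splice site. Genomic models overlap a gene without fitting these descriptions. In the selected genes Known models took 58.0% of the counts in replicate 1 (exact Clopper-Pearson 95% interval 55.4% to 60.6%) and 51.9% in replicate 2 (49.3% to 54.5%), intervals that cover counting error only. The means were 55.0 ± 4.34% Known, 6.62 ± 0.0407% ISM, 2.67 ± 0.0334% NIC, 6.30 ± 0.492% NNC and 29.4 ± 3.85% Genomic (SD, n = 2). Protein-coding genes in the same count range had 69.9 ± 0.845% Known and 4.91 ± 0.376% Genomic. The Genomic share was higher in the lincRNA genes in each library, at 26.7% and 32.2% against 4.65% and 5.18%. Without Prr33 it was 20.8 ± 3.26%. Of the 76 genes, 46 had some Genomic counts, 30 had none, and 11 had no counts of another class.

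Prr33 had the most counts, 174 and 198 (chr7:142491074-142506771, minus strand). RefSeq lists it as a lncRNA, despite a symbol that refers to a proline-rich protein. Most of its counts came from 1 unspliced Genomic model in each library, with 134 counts in replicate 1 (chr7:142502740-142506060) and 168 in replicate 2 (chr7:142502740-142504698). These models hold no base of an annotated Prr33 exon. They lie in the first Prr33 intron, across exons and introns of Tnnt3, the fast skeletal troponin T gene, which is transcribed from the other strand. Their end with the lower coordinate falls on a Tnnt3 exon boundary in both libraries, and in replicate 2 the other end does as well. No Genomic model of Prr33 was covered by opposite-strand coding exons over more than 24.4% of its length. The strand of these reads rests on the deposited assignment and was not tested.

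Spliced Prr33 models lay beyond the first intron. The 2-exon ISM models had 16 and 11 counts and the NNC models 8 and 7. By the definition given below, the leading structure of Prr33 was a 2-exon NNC chain with 15 counts in all, and it had 0 Known counts.

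**Figure D3:**
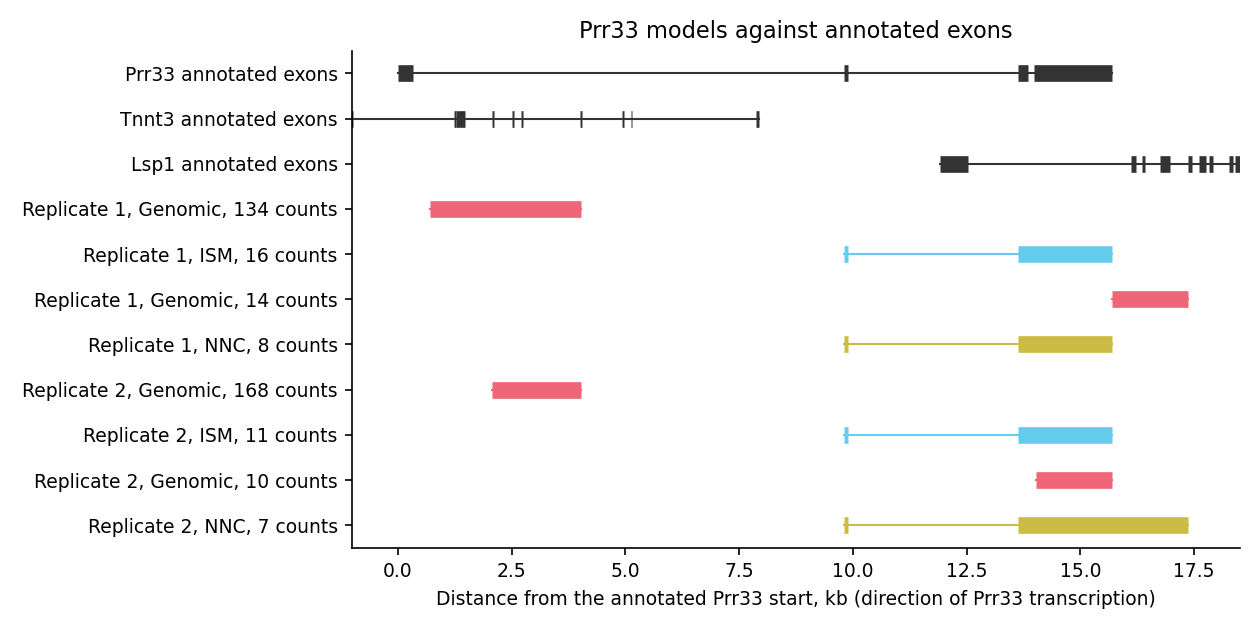
Annotated exons of Prr33 and of Tnnt3 and Lsp1, which lie on the other strand, and every Prr33 model with at least 5 counts, by distance from the annotated Prr33 start in kb. Exon blocks narrower than 40 bases are drawn 40 bases wide, and exons of Tnnt3 and Lsp1 outside the plotted range are not shown. The models with 134 and 168 Genomic counts lie across Tnnt3 exons, and the spliced models start beyond the first Prr33 intron.

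The 11 genes with Genomic counts alone all carry provisional Gm symbols and held 251 counts. Gm26694 had 22 and 38, Gm26699 21 and 28, Gm26733 14 and 15, and Gm26904 10 and 16 counts. Of the 11, 10 overlap a protein-coding gene on the opposite strand, and 93 of their counts were on models of which at least 50 percent faced protein-coding exons. For Gm26699 this held for 49 of 49 counts, which face exons of Luc7l2, a splicing factor gene. The main model of Gm26694 holds no annotated exon of that gene and both of its ends are on opposite-strand exon boundaries of protein-coding genes, in both libraries. Its region contains Stub1 and Rhbdl1. The longest annotated transcripts of Gm26669, Gm26694, Gm26699, Gm26733, Gm26735, Gm26778 and Gm26883 are, over 92.8% to 100 percent of their bases, the reverse complement of transcripts of Zfp36l1, Metrn, Luc7l2, Zfp26, Sox4, Kctd12 and Tshz2. Of these 7, Gm26735 alone had some counts of another class.

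Over all Genomic counts of the selected genes, 12.2% and 11.8% were on models at least 50 percent covered by opposite-strand coding exons, against 0.319% and 0 of the Known, NIC and NNC counts. The 0 is out of 902 counts, with an exact upper limit of 0.408%. Where the Genomic models lay relative to annotated exons varied among genes. Of these counts, 487 were on models without a base in an annotated exon of the gene, 303 of them from Prr33. Another 86 were on models that contain a whole annotated intron, as in Gm17586 with 14 and 11 and AI480526 with 9 and 9. A further 127 were at least 90 percent exonic, as were most of the 23 Genomic counts of 1700020I14Rik, and 151 were partly exonic.

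Gm26518 was split differently between classes in the 2 libraries. In replicate 1, 10 of its 12 counts were on an ISM model of 1 exon, and in replicate 2 all 24 were Genomic, 11 of them on a model partly in annotated exons. It faces the genes Prr13 and Pcbp2. Of the selected genes, Gm19710 alone was called as higher in replicate 2, with 1 and 17 counts (log2 ratio 3.50 with a prior count of 0.5, 95% counting interval 1.37 to 9.43, adjusted p = 0.00332, two-sided Fisher's exact test). It reached the minimum of 10 counts only through replicate 2, where it is high, so the call is a description and supports nothing. With an assumed coefficient of variation of 0.2 it was not called (edgeR exact test, adjusted p = 0.134). All its counts were on Genomic models with no annotated exon base, and 8 of the 18 faced exons of the opposite-strand genes Hax1 and Ubap2l.

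**Figure D4:**
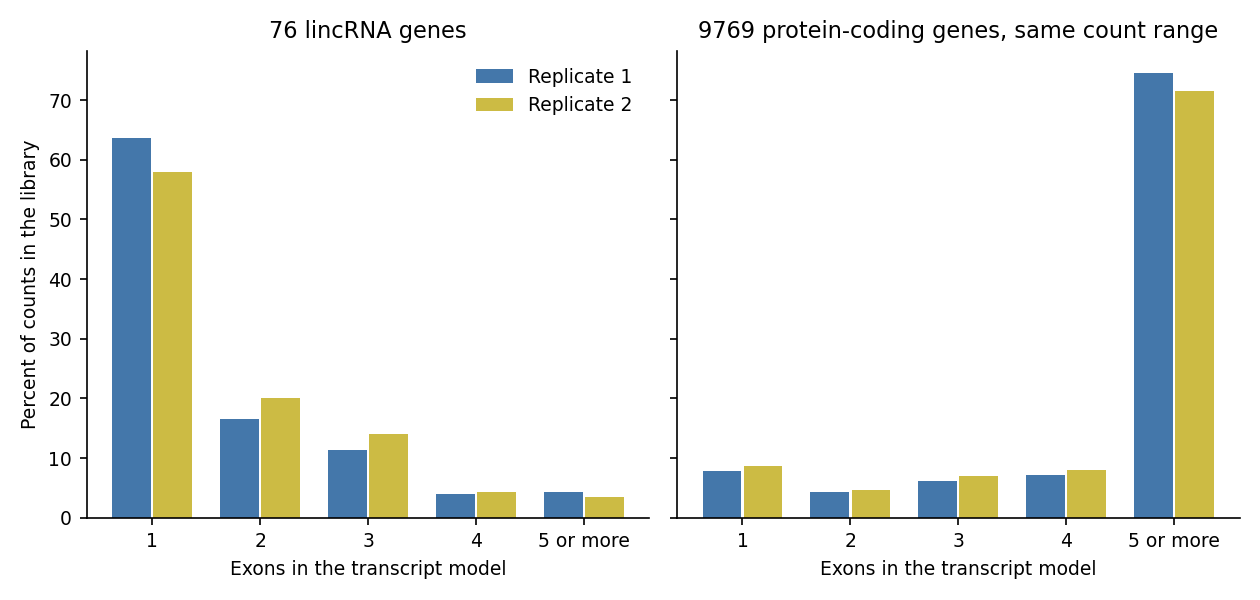
Percent of these genes' counts in each library (y axis) on models with 1, 2, 3, 4 or at least 5 exons, for the lincRNA genes (left) and protein-coding genes in the same count range (right). The lincRNA counts peak at 1 exon, at 63.7% and 57.9%, and the protein-coding counts at 5 or more.

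The transcript models of the selected genes had few exons. Models of 1 exon took 63.7% of counts in replicate 1 (exact Clopper-Pearson interval 61.1% to 66.2%) and 57.9% in replicate 2 (55.4% to 60.5%), a mean of 60.8 ± 4.08% (SD, n = 2). In protein-coding genes of the same count range the mean was 8.33 ± 0.605%. The mean number of exons per count was 1.75 ± 0.0449 against 9.39 ± 0.676, and models of at least 5 exons took 3.93 ± 0.66% against 73.1 ± 2.08%. Genomic models were nearly all of 1 exon, at 97.3% and 96.8% of their counts. The 1-exon share over all classes therefore also depends on the rule counting Genomic models. Among Known, NIC and NNC models alone, 48.7 ± 8.82% of lincRNA counts were on 1 exon, against 2.30 ± 0.1% for protein-coding genes. In the 3 genes left out by name that had counts, the share was 4.59 ± 0.663% of counts on 1 exon.

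For each gene the leading structure was the Known, NIC or NNC structure with the most counts, with structures matched between libraries by their introns. Of the 76 genes, 63 had one and 13 had none. The leading structure was Known in 49, NIC in 6 and NNC in 8, and 8 leads were tied with the next structure. The median leading structure had 2 exons and 1588 bases, whereas protein-coding genes with at least 10 counts had 9 exons and 2837 bases. With ISM and Genomic models allowed as leads, the median over the 76 genes was 1 exon, 41 leads were Known and 23 were Genomic. The lead was annotated in 77.8% of the lincRNA genes with one and in 91.4% of the protein-coding genes. Leads of 1 exon were found in 16 genes, of 2 exons in 25, of 3 in 9 and of at least 4 in 13. Between libraries, 10 of the genes could be tested, with a minimum of 20 counts per library over such structures (ISM and Genomic counts left out). Of these 0 were called and 1 had an unadjusted p under 0.05 (two-sided Fisher's exact test), where 0.449% of 5351 genes of all types were called. Only 6 of the 10 had more than 1 structure, so for the other 4 no difference was possible.

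Among genes with at least 50 counts, no lead had more than 3 exons. 5430431A17Rik, a gene without a known role, had 45 and 71 counts, with a 3-exon lead at 25 and 43 and a 2-exon annotated structure at 15 and 17. 1810058I24Rik had 38 and 53 counts, of which 36 and 52 were on a single 3-exon structure. RefSeq lists this gene as protein-coding, and it is known for a short mitochondrial membrane protein, so its lincRNA type here is that of the older annotation. A930003A15Rik, also of unknown role, had 30 and 53 counts. Its lead was tied: a 3-exon structure had 16 and 23 and a 2-exon structure 13 and 26. The junctions of these leads are printed because the exon joins are what identifies a spliced lincRNA. Up to 25 bases on each side are given, with the downstream exon in capitals, and the exons are numbered in the order of transcription.
1700020I14Rik exon 1 to exon 2: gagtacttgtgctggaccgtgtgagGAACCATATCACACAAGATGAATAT
1700020I14Rik exon 2 to exon 3: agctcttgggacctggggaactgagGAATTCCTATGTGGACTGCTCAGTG
5430431A17Rik exon 1 to exon 2: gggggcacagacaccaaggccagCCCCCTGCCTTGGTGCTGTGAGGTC
5430431A17Rik exon 2 to exon 3: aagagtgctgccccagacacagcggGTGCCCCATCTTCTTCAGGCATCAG
1810058I24Rik exon 1 to exon 2: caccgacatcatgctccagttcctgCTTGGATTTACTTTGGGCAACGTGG
1810058I24Rik exon 2 to exon 3: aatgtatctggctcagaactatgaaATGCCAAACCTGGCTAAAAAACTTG
A930003A15Rik exon 1 to exon 2: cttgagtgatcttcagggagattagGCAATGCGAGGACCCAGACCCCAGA
A930003A15Rik exon 2 to exon 3: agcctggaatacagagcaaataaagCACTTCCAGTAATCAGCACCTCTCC
The introns removed at these joins range from 102 bases in 5430431A17Rik to 11167 bases in the same gene. The last exon of 1700020I14Rik, of 7915 bases, makes up most of that structure of 8300 bases.

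Among genes led by unannotated structures, Gm34081 was the most varied. It had 23 and 20 counts, of which 20 and 16 were spread over 27 Known, NIC or NNC structures, with a 6-exon NIC lead at 3 and 2, and lies between Dlk1 and Meg3 in an imprinted region (chr12:109493529-109516740). B830012L14Rik, in the same region, had 11 and 4 counts, 10 of them Genomic. Lppos had 7 and 20 counts, with an NNC lead of 2 exons at 0 and 12 and a second NNC structure at 0 and 5 whose introns differ from it by 5 bases at one end. Replicate 1 had 6 Genomic counts at the same locus. The gene's total was not called between libraries, while its Known, NIC and NNC counts alone, 1 and 18, were (Fisher's exact test). On such counts 10.2% of all 9890 genes tested were called. These counts of Lppos reached the minimum of 10 only through replicate 2, where they are high, so the call is a description and supports nothing. The other 11 unannotated leads rested on 1 to 5 counts, as in AC102496.1, AI480526, A430046D13Rik, Gm12408, Gm14230, Gm26735 and Gm13943.

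Other high members were mostly simple. 5031425E22Rik had 20 and 26 counts, 1700096K18Rik 11 and 25, 3300002P13Rik 17 and 25, and 2310040G24Rik 20 and 17. The first pair had 1-exon Known leads with 97.5% and 100 percent of structure counts, and the others 2-exon Known leads with 73.7% and 67.6%. Gm10605, with 20 and 24 counts, had 28 in the ISM class and only 4 on its Known lead.

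A group of 4 selected genes lies within 183165 bases on chromosome 13, all on the minus strand: E430024I08Rik, Gm47467, Gm47469 and Gm46430 (chr13:74434781-74617945). They had 11 and 9, 6 and 4, 9 and 7, and 11 and 9 counts. Each was led by a Known structure of 4 to 6 exons, more than the median of 2. For Gm47469 that structure had only 2 and 0 counts, while 4-exon ISM models, which cannot lead by the definition, held 7 and 6. The sequences of the 4 genes are related. The leading structure of Gm47467 was covered over its whole length by matches to E430024I08Rik, Gm47469 and Gm46430. The best-matching stretch of each had 97.6% to 97.9% identity. The same held for Zfp825, a zinc finger gene with 6 and 8 counts, with 99.3% in its best stretch. The division of reads among these 4 genes is therefore uncertain. Of all 76 genes, 6 had such a copy elsewhere, at 95 percent identity or more over at least 50 percent of the transcript. Another is Gm10076, a pseudogene in RefSeq, which matched the ribosomal protein gene Rpl41 over its whole length at 99.5% identity. Gm10076 had 41 and 43 counts and Rpl41 489 and 784.

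**Figure D5:**
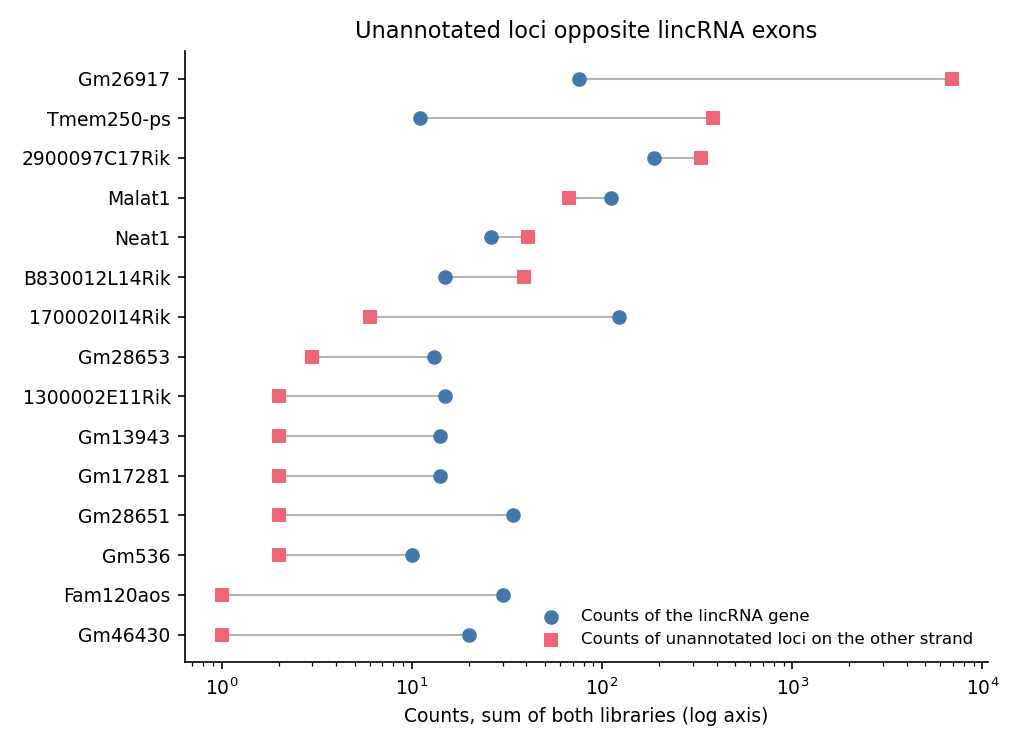
Counts of lincRNA genes (blue circles) and of unannotated loci on the opposite strand that lie mainly in their exons (red squares), summed over both libraries on a log axis, for the 15 genes that have such a locus. In 5 genes the opposite-strand locus has more counts than the gene, with Gm26917 at 6890 against 76.

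Unannotated loci on the strand opposite to a selected gene were counted when at least 50 percent of the model lay in the gene's exons. They were found at 15 of the 76 genes (19.7%) and at 20.0% of the protein-coding genes of the same count range. They were of 1 to 6 counts at 9 of the 15, and larger at the others: 5 of 76 genes (6.58%) had more counts on the opposite strand than of their own, against 0.645% of protein-coding genes. The 5 were Gm26917, Tmem250-ps, 2900097C17Rik, Neat1 and B830012L14Rik. Opposite Gm26917, in the ribosomal DNA copy, lay 4001 and 2889 counts, beside 47 and 29 of its own. Opposite Tmem250-ps, which had 5 and 6 counts, lay 127 and 258, and opposite 2900097C17Rik lay 131 and 201. The loci at Tmem250-ps and 2900097C17Rik start at the base where the annotated gene ends. Malat1 had 25 and 42 counts on the other strand. Leaving out the 3 ribosomal DNA genes, the selected genes had 27.4 and 41.0 opposite-strand counts per 100 of their own, against 1.90 and 2.84 in protein-coding genes. At the selected genes these were 326 and 559 counts, most of them opposite Tmem250-ps and 2900097C17Rik, so the rate does not describe the typical gene. Of these counts without the ribosomal DNA genes, 98.8% were on 1-exon models, and whether their strand is that of the RNA was not tested.

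Between the libraries, 12 of the 76 genes had an unadjusted p under 0.05, against 2319 of all 11027 genes tested (two-sided Fisher's exact test). The 3 called genes (3.95%, against 9.74% of all) were AY036118 and Malat1, lower in replicate 2, and Gm19710. The median log2 ratio was 0.20, against -0.04 over all genes tested, and 45 of the 76 were higher in replicate 2. For most genes the counts allow only large differences to be seen.

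In the annotation, the selected genes lie close to protein-coding genes more often than lincRNA genes at large, as a description. Of the 76, 19 (25%) overlap a protein-coding gene on the opposite strand, against 7.04% of all 5854 annotated lincRNA genes. Of the 19, 10 had Genomic counts alone and so passed the count minimum only through that class. The overlap share therefore depends on the rule counting Genomic models. A divergent protein-coding neighbour, with the start sites within 5000 bases on opposite strands, was present for 17 of the 76 (22.4%, against 6.94%). The closest pairs were 2010320M18Rik with Pik3r2 and Gm43254 with Ppa2, at 102 bases each. Others were Gm14230 with Tgif2 at 115 bases, C030037D09Rik with Msi2 at 132, Snhg18 with Sema5a at 148, Gm17586 with Mafg at 168 and 5031425E22Rik with Kmt2e at 172. No protein-coding gene was within 5000 bases of 31 genes (40.8%, against 78.2%). The 76 genes lie on 19 chromosomes. RefSeq had an entry for 50 of the 76 by symbol or synonym: 40 lncRNA, 7 protein-coding, 2 pseudogene and 1 transcribed pseudogene.

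The annotated leading structures had a median GC content of 48.3%, against 50.6% in protein-coding genes of the same count range. Their longest open reading frame starting at ATG had a median of 74 codons, against 428, and 14 of the 49 had one of at least 100 codons. The longest were in Gm37494, with 918 codons, and Zfp469, with 523, both of which RefSeq lists as protein-coding. Gm37494 had 16 and 13 counts, of which only 2 and 3 were on the structure with this frame, tied with an NIC structure. Zfp469 had 7 and 6 counts.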

How the data were processed

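Long-read RNA sequencing libraries of gastrocnemius muscle were used, with 2 µg of total RNA and spike-ins per the labels. The deposited tables hold the authors' whole-number read counts per transcript model with its class, made in TALON format on mm10 with GENCODE M21 per the deposited readme files. The aligner, platform and their versions were not given in the sources used here. Counts were summed per gene over all 5 classes, without spike-ins and unannotated loci, and divided by counts on annotated genes (CPM). At annotated depths of 998659 and 1026257 counts, the lowest mean level of a selected gene was 4.90 CPM.

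The members and lists were chosen with earlier results of these data known. Libraries were compared per gene by two-sided Fisher's exact test, for 11027 genes with at least 10 counts, with Benjamini-Hochberg adjustment and a threshold of 0.05. This measures counting error only. Named genes were the 20 highest, those on the lists, called, hosting small RNA genes or led by unannotated structures. Genes named for overlaps, copies, opposite-strand loci, neighbours or reading frames were chosen after their values were seen. Copies were found with BLAST 2.17.0 against all GENCODE M21 transcripts. The query was the leading structure where it was Known, and otherwise the longest annotated transcript of the gene. Sequences are from GENCODE M21 and, for microRNAs, RefSeq (GRCm38.p6). Python 3.11.15, pandas 2.3.3, numpy 2.4.6, SciPy 1.17.1, R 4.3.3, edgeR 4.0.16, DESeq2 1.42.0 and matplotlib 3.10.9 were used, the test was tested on simulated data, and the alternatives varied scaling, count minimum, classes, assumed spread, weighting and replicates.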

Additional observations from a re-analysis of the deposited data

How the results depend on the processing

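The number of selected genes followed the minimum: 143 with 5 counts in sum, 39 with 20, 42 on Known, NIC and NNC counts alone, and 38 to 42 when 1 library was left out. Their summed level was 911 CPM on Known, NIC and NNC counts and 1005 CPM without Genomic counts, and 6 of the 10 highest stayed so per kb. Genes of all types called between libraries numbered 172 with a preset edgeR coefficient of variation of 0.1, 56 with 0.2, and 347 with an absolute log2 ratio of at least 1. Of the selected genes, 0 were called with 0.2 (adjusted p = 0.284 for AY036118, 0.134 for Gm19710 and 1 for Malat1). AY036118 and Gm19710 were called with 0.1, and all 3 with TMM, with DESeq2 size factors, with no minimum and with the ratio limit. The Known share was 45.2% with genes weighted equally, 63.1% without Prr33 and 49.2% without the 3 ribosomal DNA genes, a setting chosen after seeing the data. The Genomic share was 20.8% without Prr33. The share on 1-exon models was 48.7% for Known, NIC and NNC, 45.5% without Genomic counts, 49.9% with equal weights and 55.8% without the ribosomal DNA genes. Among the 20 highest genes, leaving out 1 library moved the level by over 1.5 times for AY036118 (34.1 CPM without replicate 1, from 66.6), Malat1 (35.1 without replicate 1, from 55.6) and 1700096K18Rik (11.0 without replicate 2, from 17.7). The log2 ratios of the 3 called genes kept their sign under the alternatives in which they were tested. These alternatives reuse nearly the same counts with nearly equal scaling, so a change of sign was hardly possible and this supports nothing. With all classes allowed as leads, the median lead had 1 exon, not 2, and 41 leads were Known, not 49. No paired analysis was possible because there is 1 group. At this depth, genes with 10 to 19 counts show only large differences.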
